A study of Mus musculus with 24 samples.

Results

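This section describes 9 genes of hemoglobin and heme in subcutaneous white adipose tissue (sWAT): the adult β-globin genes Hbb-bt and Hbb-bs, the adult α-globin genes Hba-a1 and Hba-a2, the heme synthesis enzymes Alas2, Alas1 and Fech, the red cell anion exchanger Slc4a1 and the heme-degrading enzyme Hmox1. They were found by gene symbol, 9 of the 19175 genes of the count table, and all 9 passed the filter on low counts that left 14982 genes for testing. The 9 were chosen from earlier results of these same mice, in which red cell genes were lower in females than in males, so their values in females against males are given as a description with no test. The tissue came from 24 mice aged 20 weeks in 4 groups of 6: female Gdf15-KO, female WT, male Gdf15-KO and male WT. Gdf15-KO mice lack the stress-induced hormone GDF15 in every tissue, the WT mice were littermates, and all mice shared a mixed C57BL/6/129/SvJ background, standard chow and free access to food until they were killed at lights off. RNA of the whole tissue was sequenced, and values are CPM, counts scaled to the size of each library by TMM normalization.

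Hemoglobin carries oxygen in red cells and is built from 2 α and 2 β globin chains, each holding a heme. Heme is made in every cell with mitochondria: ALAS joins glycine and succinyl-CoA in the first step, and ferrochelatase (Fech) inserts iron in the last. The first step has an erythroid isoenzyme, Alas2, and a general one, Alas1, which heme itself represses in liver. Hmox1 is the inducible heme oxygenase that opens the heme ring to biliverdin, iron and carbon monoxide, and it is known from macrophages that recycle red cells and from cells under oxidative stress. Circulating red cells have lost their nucleus but their young forms still hold globin and Alas2 mRNA, so a tissue taken with its blood carries these transcripts.

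The globin genes come in near-identical pairs, which bears on every value below. In GRCm39, Hbb-bt (gene ID 101488143) lies on the minus strand at chr7:103461730-103463203 and Hbb-bs (100503605) at chr7:103475739-103477169, each with 3 exons. Hba-a1 (15122) lies on the plus strand at chr11:32233511-32234504 and Hba-a2 (110257) at chr11:32246396-32247298, also with 3 exons each. The coding sequences of the 2 β genes differed at 1 of 441 bases and those of the 2 α genes at 1 of 426 bases (99.77% identity in both pairs, stop codon left out). Counted from the A of the start codon, the differences are T417C for Hbb-bt against Hbb-bs and C381T for Hba-a1 against Hba-a2. The last 100 coding bases of each are shown because they hold the only base of the coding sequence, printed in capitals, by which a read can be given to one copy. They span chr7:103461866-103461965, chr7:103475875-103475974, chr11:32234289-32234388 and chr11:32247106-32247205.
Hbb-bt: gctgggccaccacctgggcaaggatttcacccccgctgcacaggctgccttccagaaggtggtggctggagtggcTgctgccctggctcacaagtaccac
Hbb-bs: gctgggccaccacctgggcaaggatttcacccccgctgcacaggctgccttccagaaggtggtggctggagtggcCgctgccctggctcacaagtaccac
Hba-a1: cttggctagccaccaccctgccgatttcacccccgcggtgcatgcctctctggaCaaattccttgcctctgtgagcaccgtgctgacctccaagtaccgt
Hba-a2: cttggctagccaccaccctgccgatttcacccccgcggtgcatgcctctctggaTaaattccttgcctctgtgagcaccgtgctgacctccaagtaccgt

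Of all 150-base stretches of the Hbb-bt transcript, 50.6% occur letter for letter in the Hbb-bs transcript, and 54.6% of those of Hbb-bs occur in Hbb-bt. For the α genes 61.0% of the stretches of Hba-a1 occur in Hba-a2 and 72.1% of those of Hba-a2 in Hba-a1. The counts bear the mark of this sharing. RSEM, which divides a read between the transcripts it fits, gave a whole number for the sum of Hbb-bs and Hbb-bt in 24 of 24 mice and for the sum of the 2 α genes in 24 of 24 mice (within 0.011), but for a single β gene in only 1 mouse and for a single α gene in 0. The division between the copies is therefore an estimate, on which the pair sums do not depend. The β genes Hbb-b1 and Hbb-b2 of the diffuse haplotype, which 129 strains carry in place of Hbb-bs and Hbb-bt, were not analysed here. The Hbb haplotype of each mouse on this mixed background is not given in the sources used here, so the β levels, the β sums and the ratio of α to β cover the counts of Hbb-bs and Hbb-bt alone, and the part of the haplotype in them was not tested.

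The promoters are shown as a description of the genes in the reference. Whether their letters bear on how the genes varied over the mice (below) was not tested. The sequences are the 120 bases before the annotated start in RefSeq (GRCm38.p6), which held 6 of the 9 genes. Capitals mark the letters of 4 motifs searched on both strands: AGATAA or TGATAA (the GATA motif), the CACCC box, the CCAAT box and the TATAA box. The stretches are chr7:103813924-103814043 for Hbb-bt, chr7:103827929-103828048 for Hbb-bs, chr11:32283552-32283671 for Hba-a1, chr11:32296372-32296491 for Hba-a2, chrX:150547297-150547416 for Alas2 and chr9:106247955-106248074 for the first of 2 starts listed for Alas1. Hbb-bt, Hbb-bs and Alas1 are on the minus strand.
Hbb-bt: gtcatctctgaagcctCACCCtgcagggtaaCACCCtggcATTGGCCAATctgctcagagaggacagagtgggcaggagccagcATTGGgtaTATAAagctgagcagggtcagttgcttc
Hbb-bs: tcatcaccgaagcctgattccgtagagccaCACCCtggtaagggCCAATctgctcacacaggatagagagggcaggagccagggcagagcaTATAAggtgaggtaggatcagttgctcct
Hba-a1: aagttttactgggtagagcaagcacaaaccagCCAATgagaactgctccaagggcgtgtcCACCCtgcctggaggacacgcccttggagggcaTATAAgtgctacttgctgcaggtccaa
Hba-a2: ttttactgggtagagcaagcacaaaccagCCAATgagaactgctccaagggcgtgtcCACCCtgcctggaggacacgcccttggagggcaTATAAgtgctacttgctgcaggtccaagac
Alas2: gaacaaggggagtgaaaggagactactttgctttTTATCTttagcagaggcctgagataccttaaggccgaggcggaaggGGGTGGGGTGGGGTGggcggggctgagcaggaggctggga
Alas1: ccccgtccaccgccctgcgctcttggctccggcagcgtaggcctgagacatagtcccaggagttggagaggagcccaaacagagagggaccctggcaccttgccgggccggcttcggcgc

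All 4 globin promoters held the CACCC box, the CCAAT box and the TATAA box within these 120 bases, which 31.7%, 21.3% and 11.8% of 32851 promoters in the same table did. TATAA began 28, 29, 27 and 30 bases before the start of Hbb-bt, Hbb-bs, Hba-a1 and Hba-a2. In Hbb-bt 2 of the 3 CCAAT matches lie next to each other on opposite strands. The stretches of Hba-a1 and Hba-a2 hold the same letters but for a small shift, so the 4 are not independent promoters. Alas2 held 1 GATA match, on the minus strand 86 bases before its start, and 3 CACCC matches on the minus strand. It held no CCAAT or TATAA match in these bases, and the 4 globin promoters held no GATA match. Of all promoters, 7.63% held a GATA match. Alas1 held none of the 4 in these 120 bases. The contrast depends on the window: in 250 bases Hbb-bs, Hba-a1 and Hba-a2 each held 1 GATA match, Hbb-bt held none, and Alas1 held 1 CACCC match. Of all promoters, 16.6% held a GATA match and 52.0% a CACCC match in 250 bases. These matches describe letters in the reference and are not evidence of binding in this tissue.

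Sums of expected counts ran from 22521358 to 24500575 per mouse. Gdf15, the targeted gene, had 3 counts over all female Gdf15-KO mice against 73 in female WT mice, and 4 in male Gdf15-KO mice against 135 in male WT mice (log2 fold −4.36, SE 0.52, and −4.89, SE 0.47, edgeR adjusted p = 2.9e-05 and 1.1e-06). The tissue expressed the defining adipocyte genes, with Adipoq at 1460 ± 185 CPM in females and 1764 ± 288 CPM in males (SD, n = 12 each). The label of the 9 genes was borne out only in part by red cell markers. The adult globins and Alas2 were present in every mouse, but of 28 other red cell and erythroid genes 10 did not pass the filter, among them the defining precursor genes Klf1 and Ahsp at 0.119 and 0.0626 CPM in females and 0.116 and 0.0253 CPM in males. Embryonic and theta globins (4 genes) summed to 0.345 CPM at most. One library stood apart: female WT replicate 4 had 1056.5 CPM of the 4 adult globins together, against 329.5 to 535.2 CPM in the other 5 female WT mice. In the same mouse the 10 adipocyte markers summed to 13040 CPM against 20220 to 23470 CPM in the other 5, and the 8 mammary and epithelial markers to 1850 CPM against 936.7 to 1169 CPM. The genotype effects in females, the globin sums and the correlations are therefore also given without this mouse, a choice made after the data were seen.

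**Figure D1:**
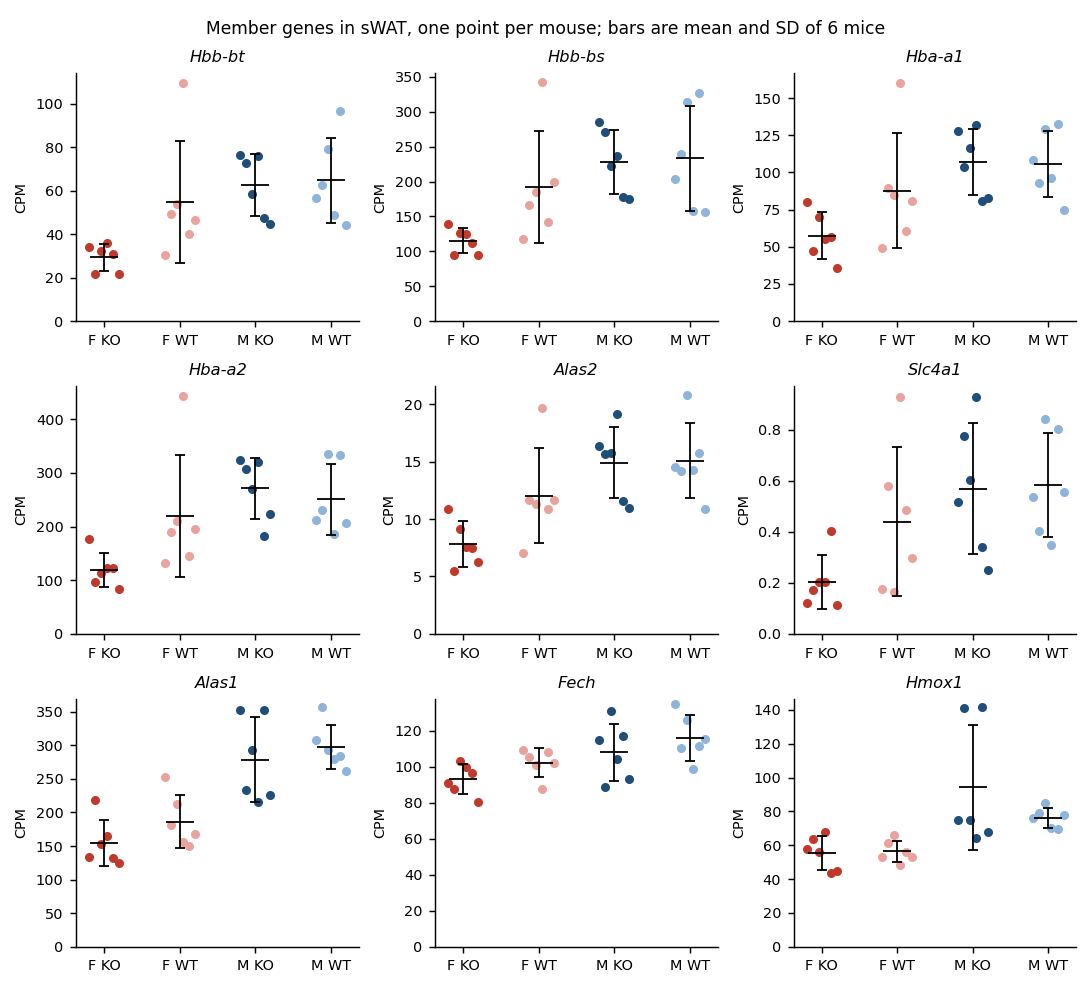
CPM (linear axes from 0) of the 9 genes in each mouse, for female (F) and male (M) Gdf15-KO (KO) and WT mice; points are mice and bars the mean and SD of 6. The globins, Alas2 and Slc4a1 share 1 high female WT mouse (replicate 4, globin sum 1056.5 CPM), whereas the highest Hmox1 values, 141.6 and 141.4 CPM, belong to 2 male Gdf15-KO mice.

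In females, the 4 globin genes had lower means in Gdf15-KO than in WT sWAT, in males the means were nearly the same, and edgeR called none of these differences over all genes, whereas DESeq2 called 2 of the 4 genes in females (below). Hbb-bs, the more abundant β gene, ran from 94.7 to 139.7 CPM around a median of 118.7 CPM in female Gdf15-KO mice, against 117.1 to 342.9 CPM around 175.8 CPM in female WT mice. All 6 female Gdf15-KO mice lay below the female WT median and 3 of them below the lowest WT mouse, so that the groups overlapped at their edges. In males the range was 174.9 to 285.2 CPM with a median of 229.6 CPM in Gdf15-KO mice, against 157.1 to 327.2 CPM with a median of 221.6 CPM in WT mice, and the groups overlapped throughout. The log2 fold change of Hbb-bs was −0.74 (SE 0.22, edgeR adjusted p = 0.265) in females and −0.03 (SE 0.22, edgeR adjusted p = 0.998) in males.

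Hbb-bt, the second β gene, ran from 21.4 to 35.7 CPM with a median of 31.4 CPM in female Gdf15-KO mice and from 30.4 to 109.5 CPM with a median of 47.7 CPM in female WT mice. Only 1 female WT mouse lay below the highest female Gdf15-KO mouse. In male Gdf15-KO mice it ran from 44.4 to 76.3 CPM (median 65.5 CPM), against 44.4 to 96.4 CPM (median 59.6 CPM) in male WT mice, again with full overlap. Its log2 fold change was −0.91 (SE 0.25) in females, with an edgeR adjusted p of 0.231, the smallest of the 9 genes, and −0.05 (SE 0.25) in males.

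Hba-a2, the more abundant α gene, ran from 83.5 to 176.6 CPM (median 117.9 CPM) in female Gdf15-KO mice, against 132.7 to 443.6 CPM (median 192.7 CPM) in female WT mice. Here 5 of 6 female Gdf15-KO mice lay below every female WT mouse. In males it ran from 182.9 to 323.5 CPM (median 287.8 CPM) in Gdf15-KO mice, against 186.5 to 335.7 CPM (median 221.1 CPM) in WT mice, and the higher median of the Gdf15-KO group was within the spread. Hba-a1 ran from 35.4 to 80.3 CPM (median 55.9 CPM) in female Gdf15-KO mice, against 49.4 to 160.4 CPM (median 82.8 CPM) in female WT mice, and from 80.6 to 131.9 CPM (median 109.9 CPM) in male Gdf15-KO mice, against 74.8 to 132.4 CPM (median 102.3 CPM) in male WT mice. The log2 fold changes in females were −0.88 (SE 0.25, edgeR adjusted p = 0.237) for Hba-a2 and −0.61 (SE 0.23, edgeR adjusted p = 0.351) for Hba-a1, and in males 0.11 (SE 0.24) and 0.02 (SE 0.23).

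Summed into pairs, which removes the division of shared reads, the β genes had a log2 fold change of −0.77 (SE 0.23, edgeR adjusted p = 0.258) and the α genes of −0.80 (SE 0.24, edgeR adjusted p = 0.264) in females, and −0.04 (SE 0.22) and 0.09 (SE 0.24) in males. Without female WT replicate 4 the values in females were −0.51 (SE 0.19, edgeR adjusted p = 0.28) for the β and −0.49 (SE 0.19, edgeR adjusted p = 0.299) for the α genes. The 4 genes together made up 0.0336% ± 0.0066 of all counts in female Gdf15-KO and 0.0557% ± 0.0289 in female WT mice, and 0.0668% ± 0.0142 in male Gdf15-KO and 0.0630% ± 0.0173 in male WT mice (SD, n = 6 each). In the 5 female WT mice other than replicate 4 the share was 0.0445% ± 0.0099. In a bulk sample, fewer red cells and less globin mRNA per red cell cannot be told apart. The paper states that a final cardiac puncture came before the tissues were dissected. The blood left in each sample is not given in the sources used here, and its part in the globin values was not tested. The balance between the chains moved little: α over β counts averaged 1.21 ± 0.16 in female Gdf15-KO, 1.23 ± 0.09 in female WT, 1.30 ± 0.12 in male Gdf15-KO and 1.22 ± 0.14 in male WT mice. Hbb-bt took 18.4% to 24.3% of the β counts and Hba-a1 25.2% to 38.0% of the α counts over the 24 mice.

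Alas2 (11656, chrX:149330371-149353634, plus strand, 11 exons) is the erythroid enzyme of the first step. It ran from 5.43 to 10.9 CPM (median 7.52 CPM) in female Gdf15-KO mice, against 7.004 to 19.7 CPM (median 11.5 CPM) in female WT mice. In males it ran from 10.96 to 19.1 CPM (median 15.7 CPM) in Gdf15-KO mice, against 10.9 to 20.8 CPM (median 14.4 CPM) in WT mice. All 6 female Gdf15-KO mice lay below the female WT median, while the male groups overlapped throughout. The log2 fold change was −0.62 (SE 0.20, edgeR adjusted p = 0.314) in females and −0.02 (SE 0.20) in males. Per 1000 globin counts there were 24.3 ± 2.4 counts of Alas2 in female Gdf15-KO, 22.49 ± 3.2 in female WT, 22.3 ± 2.0 in male Gdf15-KO and 23.6 ± 3.8 in male WT mice (SD, n = 6 each). Relative to its mean, this ratio varied less than either level in every group, though only somewhat less than Alas2 in male WT mice.

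Slc4a1 (20533, chr11:102239650-102256106, minus strand, 20 exons), the band 3 protein that exchanges chloride for bicarbonate across the red cell membrane, was near the limit of detection. Over 6 mice it had 30 counts in female Gdf15-KO, 62 in female WT, 80 in male Gdf15-KO and 79 in male WT mice. Levels ran from 0.112 to 0.402 CPM (median 0.188 CPM) in female Gdf15-KO mice, against 0.165 to 0.930 CPM (median 0.391 CPM) in female WT mice, and from 0.251 to 0.930 CPM (median 0.561 CPM) in male Gdf15-KO mice, against 0.350 to 0.845 CPM (median 0.547 CPM) in male WT mice. The groups overlapped in both sexes. Its log2 fold change in females, −1.10, was the largest in size of the 9 genes but also had the largest SE (0.43, edgeR adjusted p = 0.37), and in males it was −0.03 (SE 0.38).

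Alas1, Fech and Hmox1 had smaller fold changes in females than these 6 genes, a contrast between genes that was not tested. Alas1 (11655, chr9:106110642-106125853, minus strand, 11 exons) ran from 124.5 to 218.7 CPM (median 143.7 CPM) in female Gdf15-KO mice, against 149.3 to 252.2 CPM (median 174.1 CPM) in female WT mice. In males it ran from 214.8 to 352.8 CPM (median 262.6 CPM) in Gdf15-KO mice, against 261.6 to 357.0 CPM (median 288.3 CPM) in WT mice. Both pairs of groups overlapped, with a log2 fold change of −0.27 (SE 0.15, edgeR adjusted p = 0.536) in females and −0.09 (SE 0.15, edgeR adjusted p = 0.975) in males. Fech (14151, chr18:64585985-64622137, minus strand, 10 exons) had the narrowest spread of the 9 genes in female WT mice, with a coefficient of variation of 7.68%. It ran from 80.2 to 103.3 CPM (median 93.8 CPM) in female Gdf15-KO mice, against 87.8 to 109.3 CPM (median 103.6 CPM) in female WT mice, and from 88.6 to 131.2 CPM (median 109.4 CPM) in male Gdf15-KO mice, against 98.6 to 134.9 CPM (median 113.6 CPM) in male WT mice. The log2 fold change of Fech was −0.14 (SE 0.09) in females and −0.10 (SE 0.09) in males.

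Hmox1 (15368, chr8:75820241-75827217, plus strand, 5 exons) lies 4.74 Mb from the targeted gene. It ran from 43.3 to 67.6 CPM (median 56.9 CPM) in female Gdf15-KO mice, against 48.5 to 66.0 CPM (median 54.6 CPM) in female WT mice, and the log2 fold change was −0.02 (SE 0.17, edgeR adjusted p = 0.977). In males it ran from 64.4 to 141.6 CPM (median 75.1 CPM) in Gdf15-KO mice, against 69.4 to 85.3 CPM (median 76.8 CPM) in WT mice. The medians were alike, and the higher Gdf15-KO mean came from replicates 14 and 17, with 141.4 and 141.6 CPM, while the other 4 male Gdf15-KO mice had 64.4 to 75.1 CPM. The log2 fold change in males was 0.30 (SE 0.17, edgeR adjusted p = 0.942), and it was 0.15 without Gdf15-KO replicate 17.

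**Figure D2:**
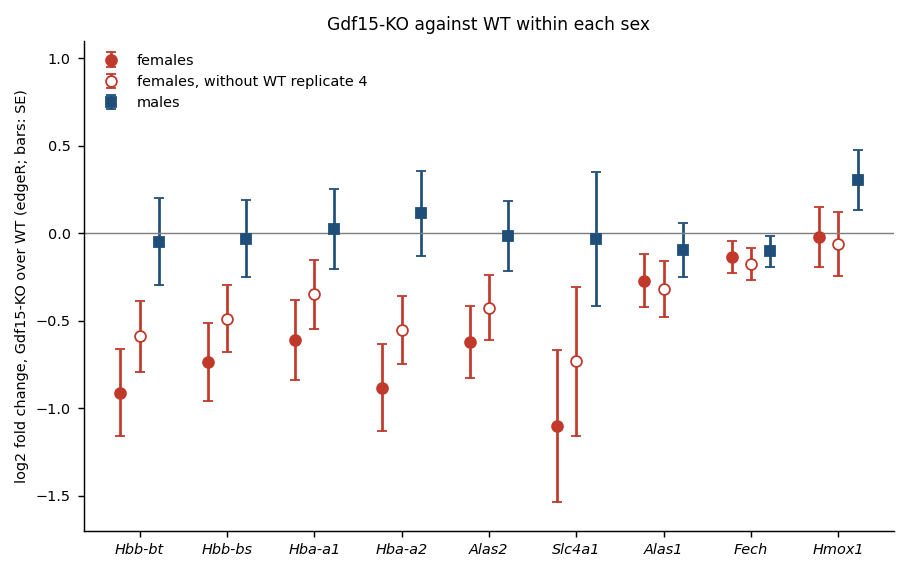
Fitted log2 fold change of Gdf15-KO over WT for each of the 9 genes in females (filled circles), in females without WT replicate 4 (open circles) and in males (squares); bars are the SE from edgeR. The female values of the globins, Alas2 and Slc4a1 lie between −1.10 and −0.61 and move towards 0, to between −0.73 and −0.35, when that 1 mouse is left out, and those of Alas1, Fech and Hmox1 lie between −0.27 and −0.02.

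Taking the 9 genes as a list, 0 were called by edgeR for Gdf15-KO against WT in females, in males or for the difference of the 2, at adjusted p under 0.05 over all genes. The background was 29 of 14982 genes in females (0.194%), 30 in males (0.2%) and 0 for the difference (0%). At an unadjusted p under 0.05 there were 6 of the 9 genes in females (the 4 globins, Alas2 and Slc4a1), 0 in males and 4 for the difference (Hbb-bt, Hbb-bs, Hba-a2 and Alas2), beside 10.9%, 5.47% and 3.48% of all genes. The 4 globins and Alas2 varied together over the mice (r of 0.85 to 0.96, below), so these counts are not counts of independent genes. Without female WT replicate 4 there were 4 in females (Hbb-bt, Hbb-bs, Hba-a2 and Alas2), 0 in males and 1 for the difference (Hba-a2), in edgeR and in DESeq2 alike, beside 12.1%, 6.24% and 3.68% of all genes in edgeR. The median log2 fold change of the 9 was −0.62 in females and −0.03 in males, beside −0.005 and 0.001 over all genes tested, and the value in females was −0.43 without that mouse. The difference of the genotype effect between the sexes was largest, among genes with over 1 CPM, for Hba-a2 (female minus male −0.995, SE 0.35, edgeR adjusted p = 0.998), and it was −0.67 (SE 0.27, edgeR adjusted p = 0.998) without female WT replicate 4.

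DESeq2 called 2 of the 9 in females, Hbb-bt (adjusted p = 0.0423) and Hba-a2 (adjusted p = 0.0426), 0 in males and 0 for the difference, and limma-voom called 0 in all 3. Of all 14982 genes, DESeq2 called 84 in females, 51 in males and 0 for the difference, and limma-voom 27, 29 and 0. Fitted to females alone, DESeq2 called Hbb-bt (adjusted p = 0.0432) and Hbb-bs (adjusted p = 0.0498), among 206 calls over all genes. Without female WT replicate 4, DESeq2 fitted to all 4 groups called 0 of the 9, with a smallest adjusted p of 0.111, whereas DESeq2 fitted to females alone called Hbb-bt (log2 fold −0.59, adjusted p = 0.0252) and Hbb-bs (log2 fold −0.49, adjusted p = 0.0271). Over all genes, the fit to 4 groups without that mouse called 182 of 15026 in females, and the fit to females alone called 497. The calls thus turned on the tool, the mice in the fit and this mouse. In edgeR the log2 fold changes in females without that mouse were −0.59 (SE 0.20) for Hbb-bt, −0.49 (SE 0.19) for Hbb-bs, −0.35 (SE 0.20) for Hba-a1, −0.55 (SE 0.20) for Hba-a2, −0.43 (SE 0.19) for Alas2 and −0.73 (SE 0.43) for Slc4a1, with adjusted p between 0.244 and 0.515. The sign held for all 6 genes, and the size shrank for each.

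Females against males, the comparison from which the genes were chosen, all 9 had a lower mean in females, and 52.8% of all genes tested had a negative log2 fold change. The 4 globins had log2 fold changes of −0.67 (Hbb-bt, SE 0.18), −0.63 (Hbb-bs, SE 0.16), −0.58 (Hba-a1, SE 0.16) and −0.69 (Hba-a2, SE 0.17), Alas2 −0.63 (SE 0.14) and Slc4a1 −0.94 (SE 0.29). For each globin gene and Alas2, 11 of 12 females lay below the male median, and the exception was WT replicate 4. Without it the log2 fold changes of these 5 genes were −0.83, −0.75, −0.72, −0.85 and −0.73 in the same order, and that of Slc4a1 was −1.12. Of the general genes, Alas1 had a log2 fold change of −0.76 (SE 0.11), Hmox1 of −0.60 (SE 0.12) and Fech of −0.20 (SE 0.06), with 12 of 12 females below the male median for each. Alas1 averaged 170.4 ± 39.05 CPM in females and 287.7 ± 49.1 CPM in males, Hmox1 55.9 ± 7.9 CPM and 85.3 ± 26.8 CPM, and Fech 97.7 ± 9.1 CPM and 112.2 ± 14.4 CPM (SD, n = 12 each). None of the 9 separated the sexes without overlap.

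Set side by side by sex and genotype, the 6 erythroid genes ordered the groups as female Gdf15-KO, female WT and then both male groups, whose means lay within 1 SD of each other. The female WT means also lay within 1 female WT SD of both male means, as for Hbb-bs (192 ± 80 CPM against 228 and 233 CPM). For each of the 6 genes the highest female WT mouse was replicate 4, which is included in these means. Alas1 and Hmox1 had both female groups below both male groups, with female means of 154.5 and 186.3 CPM for Alas1 in Gdf15-KO and WT mice and male means of 278.3 and 297.1 CPM. Per kilobase of the canonical transcript, averaged over 24 mice, Hba-a2 had 332 ± 141 CPM, Hbb-bs 290 ± 111 CPM, Hba-a1 121 ± 43 CPM and Hbb-bt 75.0 ± 32.3 CPM (SD). Alas1 at 67.1 ± 21.7 CPM per kilobase stood some way above Alas2 at 6.11 ± 2.08 CPM per kilobase, and Fech was at 16.2 ± 2.2, Hmox1 at 44.8 ± 15.5 and Slc4a1 at 0.0987 ± 0.0577 CPM per kilobase. Hbb-bt and Alas1 did not differ in this measure beyond their spread.

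**Figure D3:**
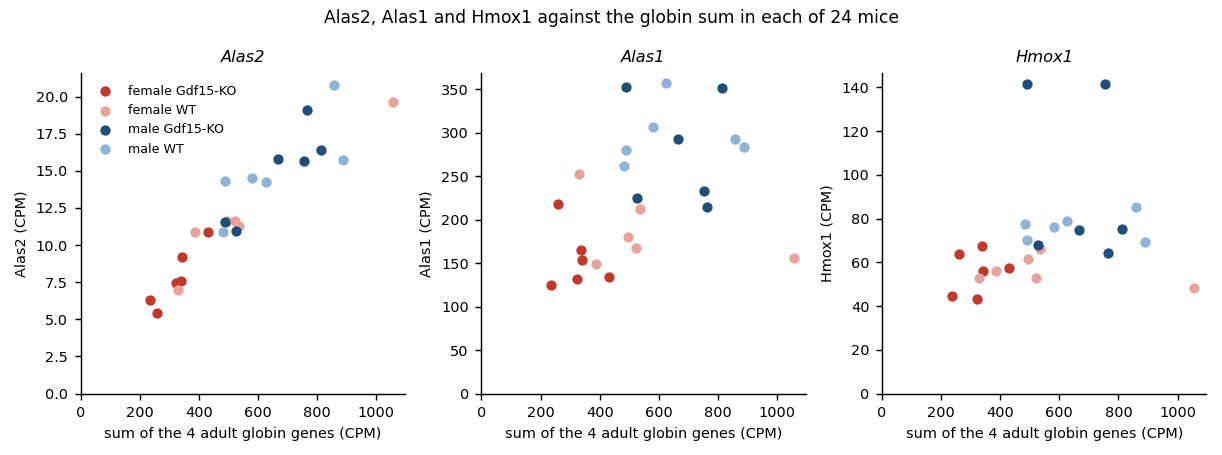
Alas2, Alas1 and Hmox1 (CPM) against the summed CPM of the 4 adult globin genes, 1 point per mouse, coloured by group, linear axes from 0. Alas2 climbs with the globin sum through all 4 groups, from 5.43 to 20.8 CPM, while Alas1 and Hmox1 are lower in females, with overlap between the sexes, and correlate with the single globins at only −0.28 to −0.01 once group means are taken off.

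Across the 24 mice, with the mean of each group taken off log2 CPM, the 4 globins correlated with each other at Pearson r of 0.87 to 0.96 and with Alas2 at 0.85 to 0.92. The pairs of near-identical copies share reads, but the α and β genes do not, and r between them was 0.87 to 0.93. Slc4a1 followed less closely, at 0.58 to 0.67. Alas1 correlated with the globins at −0.28 to −0.17, Fech at −0.15 to 0.03 and Hmox1 at −0.13 to −0.01. Alas1 with Fech gave 0.40 and with Hmox1 0.37. Without female WT replicate 4, the globins gave 0.80 to 0.93 among themselves, 0.79 to 0.89 with Alas2, 0.44 to 0.55 with Slc4a1, −0.20 to −0.07 with Alas1, 0.09 to 0.28 with Fech and −0.04 to 0.10 with Hmox1. The points share library depth and total RNA composition, and these values are a description.

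**Figure D4:**
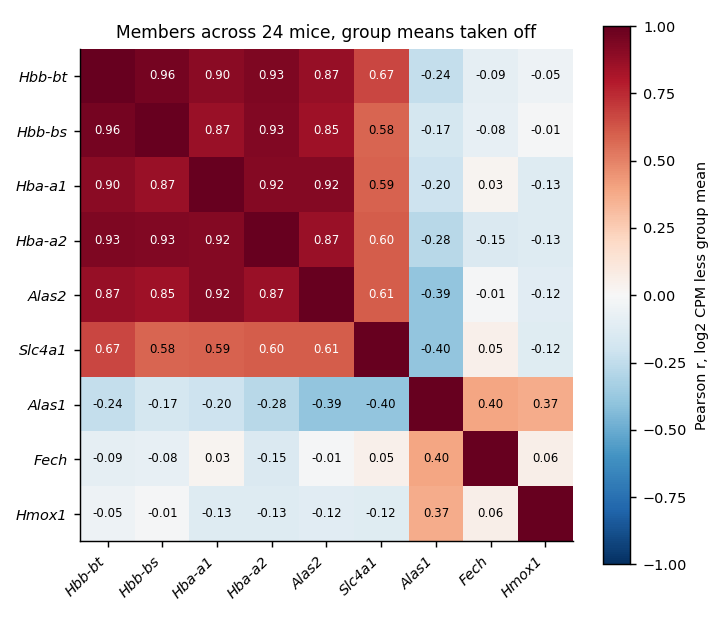
Pearson r between the 9 genes over 24 mice, on log2 CPM with each group's mean taken off; red is positive and blue negative. The 4 globins and Alas2 form a block of 0.85 to 0.96, Slc4a1 joins it at 0.58 to 0.67, and Alas1, Fech and Hmox1 lie outside it at −0.39 to 0.03 with these 5 genes.

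By the same measure, the 10 genes most like the mean of the 4 globins included Alas2 (r = 0.90), Mgp (0.83), Rsrp1 (0.73), Tbca (0.72), Clca3a1 (0.71), Tagln (0.71), LOC115489417 (0.71) and Odf2l (0.70), out of 14978 genes whose median r was 0.004. With Spearman correlation 5 of the first 10 were the same genes, and without female WT replicate 4 4 of the first 10 were. Alas2 stayed first without that mouse, at 0.87, Mgp had 0.71 and Rsrp1 0.68, while Clca3a1, Tagln and LOC115489417 had 0.46 to 0.49. Mgp and Tagln are known from vascular smooth muscle. Summed marker lists followed the globins weakly, with r of −0.25 for 8 endothelial, 0.09 for 12 macrophage, 0.11 for 10 platelet, 0.02 for 8 skeletal muscle and −0.42 for 10 adipocyte genes (−0.06, 0.30, 0.24, −0.02 and −0.03 without female WT replicate 4).

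The rest of the heme pathway was given from lists of genes with the members left out. Of 5 other heme synthesis enzymes, 0 were called by edgeR in either genotype comparison, with log2 fold changes of −0.20 to 0.13 in females and −0.13 to 0.13 in males. In females against males 2 of the 5 were called lower and 0 higher by edgeR, beside 20.9% of all genes called lower and 23.4% called higher. Alad, the second enzyme of the pathway, was lower in females by a log2 fold of −0.22 (SE 0.07, edgeR adjusted p = 0.0153), and Urod by −0.17 (SE 0.06, edgeR adjusted p = 0.0199). Uros (−0.02), Cpox (−0.02) and Ppox (−0.04) did not pass the test. Alas1, at −0.76, thus lay beyond all 5 of these enzymes, and Fech, at −0.20, within their range.

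**Figure D5:**
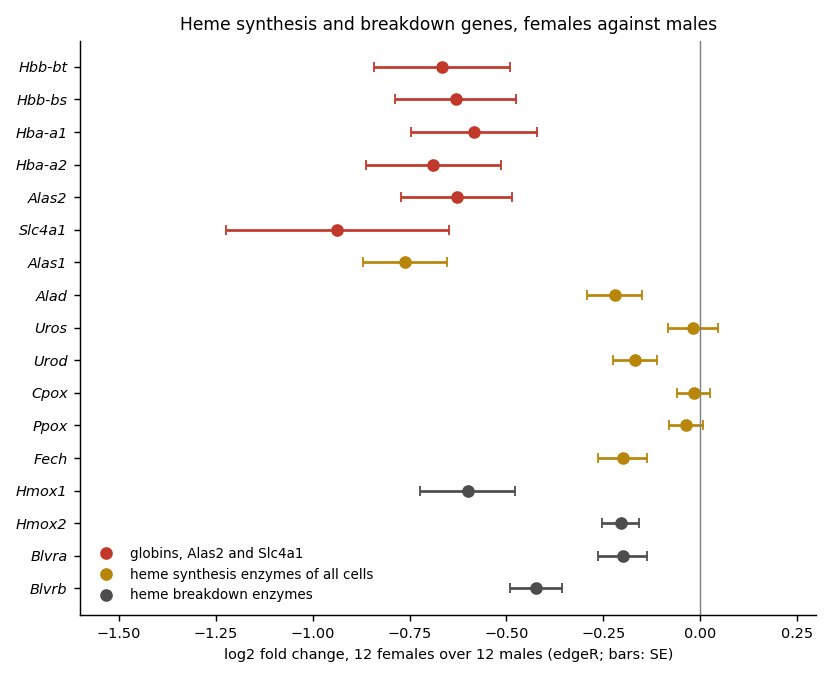
Fitted log2 fold change of 12 females over 12 males for the globins, Alas2 and Slc4a1 (red), the heme synthesis enzymes found in all cells (ochre, in pathway order from Alas1 to Fech) and heme breakdown enzymes (grey); bars are the SE from edgeR. The globins and Alas2 lie between −0.69 and −0.58, Alas1 at −0.76, and the 5 enzymes drawn between Alas1 and Fech lie between −0.22 and −0.02.

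Heme and mitochondrial iron transport went both ways in females against males, with 3 of 11 genes called higher and 5 lower. Over all genes tested, 23.4% were called higher and 20.9% lower in this comparison. Flvcr2, a heme and choline transporter, averaged 4.63 ± 0.85 CPM in females and 1.80 ± 0.39 CPM in males (log2 fold 1.36, SE 0.12, edgeR adjusted p = 2.7e-09), and Fam210b, a mitochondrial protein of erythroid iron use, 51.3 ± 5.8 CPM and 32.0 ± 3.9 CPM (log2 fold 0.68, SE 0.06, edgeR adjusted p = 5.9e-09). Slc25a38, the mitochondrial glycine carrier for the ALAS step, was lower in females (log2 fold −0.31, SE 0.05, edgeR adjusted p = 2.3e-05), and so was the iron carrier Slc25a28 (−0.23, SE 0.05, edgeR adjusted p = 0.000535). Of 13 genes of heme breakdown and iron handling other than Hmox1, 1 was called higher and 6 lower. Hp, haptoglobin, which binds free hemoglobin, averaged 253 ± 58 CPM in females and 1383 ± 257 CPM in males (log2 fold −2.45, SE 0.14, edgeR adjusted p = 4.9e-13). Fth1, ferritin heavy chain, and Blvrb, biliverdin reductase B, were lower in females by log2 folds of −0.54 and −0.42 (SE 0.06 and 0.07, edgeR adjusted p = 5.5e-08 and 1.8e-05), and the iron regulatory protein Ireb2 was the gene called higher (0.17, SE 0.03, edgeR adjusted p = 0.000352). In the plot of heme genes by sex, Hmox2 and Blvra are shown to complete the pathway and were chosen after their values were seen.

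Among 9 regulators and targets of the NRF2 pathway, which induces Hmox1, 2 were called higher and 3 lower in females. The shares of all genes called higher and lower were 23.4% and 20.9%. Gclc, of glutathione synthesis, averaged 65.4 ± 13.3 CPM in females and 34.2 ± 2.1 CPM in males (log2 fold 0.94, SE 0.09, edgeR adjusted p = 8.4e-09), opposite in sign to Hmox1. Txnrd1, Keap1 and Srxn1 were lower by log2 folds of −0.21, −0.20 and −0.26 (edgeR adjusted p = 9.4e-05, 0.00108 and 0.00827). None of the 24 genes of transport, breakdown and iron handling nor the 9 of the NRF2 list was called in a genotype comparison.

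Other red cell genes did not move as one with the globins. Of 28, 18 passed the filter, and 0 were called in a genotype comparison. In females against males 6 were called lower and 1 higher, beside 20.9% and 23.4% of all genes. The lower ones included the erythropoietin receptor Epor (7.49 ± 0.89 CPM in females and 10.9 ± 2.0 CPM in males, log2 fold −0.54, SE 0.09, edgeR adjusted p = 3.7e-05), the glycophorin Gypc (−0.39, SE 0.06, edgeR adjusted p = 2.8e-05) and Bpgm, which makes 2,3-bisphosphoglycerate (−0.41, SE 0.10, edgeR adjusted p = 0.00199). Markers of several other cells also moved with sex. Called lower in females were 5 of 8 endothelial, 6 of 12 macrophage, 9 of 10 adipocyte and 3 of 5 tested platelet genes. All 8 of 8 mammary and epithelial genes were called higher. Of 10 tested neutrophil genes 5 were called lower and 1 higher, and of 8 skeletal muscle genes 1 was called lower and 0 higher. These counts stand beside 20.9% of all genes called lower and 23.4% called higher. In the genotype comparisons 1 gene of these marker lists was called, the lipoprotein lipase Lpl in males (log2 fold −0.70, SE 0.14, edgeR adjusted p = 0.0288). Endothelial markers summed to 697.2 to 894.3 CPM in females and 844.4 to 1038 CPM in males, and adipocyte markers to medians of 17570 CPM in female Gdf15-KO and 20740 CPM in female WT mice, against 24650 CPM in male Gdf15-KO and 28240 CPM in male WT mice. The part of these cell types in the globin and heme values was not tested.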

How the data were processed

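sWAT of 24 mice was profiled by RNA-Seq (nanoball sequencing, paired reads of 150 bp). Per the labels and the study's methods, the authors aligned reads with Bowtie2 2.2.5 to GRCm39 and summarised them per gene with RSEM 1.2.8. Their deposited values are expected counts, which need not be whole, because RSEM divides reads shared by near-identical genes between them. The kit's strand setting was not given in the sources used here. No value column lacked a sample.

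Values were rounded to whole counts, genes were kept by filterByExpr on the 4 groups (at least 10 counts, and 15 in total), TMM set the library sizes, and the quasi-likelihood model of edgeR 4.0.16 under R 4.3.3 was fitted with one mean per group. Comparisons were Gdf15-KO against WT within each sex, the difference of these, and females against males, adjusted by Benjamini-Hochberg over all 14982 genes and called at 0.05. The quasi-likelihood test gives no SE of its own. Each SE from edgeR was derived as the size of the log2 fold change divided by the square root of its F statistic. Log2 CPM used a prior count of 2, and marker sums a pseudocount of 0.1 CPM. Depth was 22521358 to 24500575 counts per mouse. The mice are taken as independent, and p-values measure the spread between these mice. No 2 mice of a group were alike within sampling noise. The procedure was tested on simulated data.

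The 9 members and the gene lists were chosen with earlier results of these data known. Named genes were the 9 members, any list gene called in a genotype comparison (Lpl in males only), all heme synthesis genes, up to 4 other genes of each heme or red cell list with the smallest p in females against males and at least 1 CPM, the 10 genes most like the globins, and Gdf15. Hmox2, Blvra and the marker genes Adipoq, Klf1 and Ahsp were named outside this rule, and some genes that the rule takes are not reported here. Females and males share replicate numbers, and same-numbered mice deviated together in 9 of 12 pairs (r over 0.1, range −0.56 to 0.40), and no source says what a number marks, so mice were treated as unpaired.

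Alternatives were DESeq2 1.42.0, limma-voom (limma 3.58.1), DESeq2 size factors in edgeR, other filters, globins left out of the scaling, summed globin pairs, each sex alone, a replicate block and leaving out each mouse. DESeq2 on each sex alone, DESeq2 without female WT replicate 4 (all groups, and females alone), and the globin sums and correlations without that mouse, were added after the data were seen. Positions came from GENCODE vM39 (GRCm39), promoters from RefSeq (GRCm38.p6).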

Additional observations from a re-analysis of the deposited data

Results flagged for a closer look

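Of 36 sets of 6 mice (9 genes in 4 groups), 1 held a mouse far from the others on the log2 scale: Fech in female WT replicate 4 was the lowest, at 87.8 CPM, while the other 5 female WT mice lay together. Chance gives about 1 such set in 20. On the CPM scale 6 sets held such a mouse, and 0 did so on both scales. Those on the CPM scale were Hbb-bt, Hbb-bs, Hba-a1, Hba-a2 and Alas2 in female WT mice, each with replicate 4 the highest. The last was Slc4a1 in female Gdf15-KO mice, with replicate 17 the highest. The globins and Alas2 varied together over the mice, so these sets are not independent.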

How the results depend on the processing

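Over all genes, calls for Gdf15-KO against WT in females numbered 29 in edgeR, 84 in DESeq2, 206 in DESeq2 on each sex alone, 182 in DESeq2 without female WT replicate 4, 497 in DESeq2 on females alone without that mouse and 18 in edgeR on each sex alone. In males they numbered 30 in edgeR, 51 in DESeq2, 57 in DESeq2 on each sex alone and 57 in DESeq2 without female WT replicate 4. Of the 9 genes, 2 were called in females by DESeq2, 2 by DESeq2 on each sex alone and 2 by DESeq2 on females alone without female WT replicate 4, against 0 in edgeR; the cause of the differences between tools was not tested. Leaving out each mouse in turn gave 22 to 30 calls in females, 25 to 36 in males, 0 for the difference and 6297 to 6916 for females against males, and 0 of the 9 in both genotype comparisons. Signs turned only where values were near 0. Hbb-bs in males was 0.0063 in limma-voom. With 1 mouse left out, Hmox1 in females ran from −0.086 to 0.040, and in males Hbb-bt ran from −0.13 to 0.11, Hbb-bs from −0.11 to 0.10, Hba-a1 from −0.051 to 0.11, Alas2 from −0.091 to 0.10 and Slc4a1 from −0.22 to 0.13. The difference for Fech ran from −0.084 to 0.027. With the replicate number as a block, 6684 genes were called for females against males and 0 for the difference. Gdf15-KO and WT mice share no replicate number, so the block could not be used for the genotype comparisons within each sex. For the 9 genes it therefore bears only on the difference, where 0 were called with or without it. Only 6 mice correlated best with the mouse of their own number. Slc4a1 gave no value under the filter of 10 counts in every sample or with females fitted alone, and DESeq2 gave Alas2 no adjusted p on females alone without replicate 4. Depth limits Slc4a1, with 30 counts over 6 female Gdf15-KO mice, and shared reads limit the division within each globin pair.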
